A study of Mus musculus with 23 samples.

Results

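The quantity described here is the difference between 2 responses to induced TGF-beta, that of mouse skin carcinomas minus that of mouse skin papillomas. It was taken over all 23 of the 23 arrays of the series, placed by their titles in 14 papilloma and 9 carcinoma arrays. Each 2-colour array carried RNA of a bigenic tumour in one dye and of a monogenic tumour of the same class in the other, so a single array already gives a log2 ratio between genotypes. Arrays of the same 2 RNA extracts were averaged, which left 11 papilloma pairs from 8 bigenic and 7 monogenic tumours, and 7 carcinoma pairs from 5 bigenic and 4 monogenic tumours. Monogenic mice were K5rTA, which carry a tetracycline transactivator under the keratin 5 promoter, and bigenic mice were K5rTA tetOTGFbeta, which also carry a TGF-beta transgene that the transactivator switches on with doxycycline. All mice were FVB, 7 to 12 weeks old at the start by the labels, and received 100 µg of the carcinogen DMBA and then 5 µg of the phorbol ester TPA 2 times a week for 20 weeks. Papillomas were taken at weeks 12 to 14 and squamous cell carcinomas at weeks 25 to 35. The tumour classes therefore differ in time as well as in stage. If these weeks count from the start of treatment, papillomas fall within the 20 weeks of TPA and carcinomas after its end. Tumour class and ongoing TPA then cannot be told apart. Tumours of both genotypes came from mice on chow with 1 g/kg doxycycline for 48 h, so the monogenic tumours share the drug and the transactivator. The keratin 5 promoter is active in basal keratinocytes, and the labels do not say how many tumours came from 1 animal.

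TGF-beta is a secreted cytokine that binds a pair of serine-threonine kinase receptors and acts through SMAD transcription factors. In skin it restrains keratinocyte growth and so opposes early tumours, while in later tumours it is also known to favour matrix deposition, invasion and suppression of immune cells. A gene that responds to it in one direction in benign tumours and in the other in malignant ones is therefore of textbook interest, and the class difference is the measure of that.

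The numerator of the deposited ratios is not given in the sources used here, so every value has a side and not yet a direction. If Cy5 was the numerator, a gene on the positive side had more RNA in the bigenic tumour, and if Cy3 was, it had less. The second reading turns the sign of every value below together, and neither the size of a class difference nor the fact that a gene changes side depends on it. A ratio gives no level, so the labelled tissue could not be checked against defining markers, and in bulk tumours fewer cells of a type cannot be told apart from less RNA per cell. Arrays held 6729 to 9573 values of 9596 probes, with a median of 8872, and their number limits the precision. In the 5 pairs hybridised in both dye orientations, the turned ratios of the 2 orientations correlated at r from -0.05 to 0.33 across probes.

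Of 6413 genes tested, 23 (0.359%) had a class difference past an adjusted p of 0.05 with limma, 6 positive (0.0936%) and 17 negative (0.265%). A positive difference means that the carcinoma mean lay above the papilloma mean. All 23 had class means on opposite sides of 0, against 43.3% of all genes tested, and a choice by large difference favours that. In 18 of the 23 the carcinoma mean was the farther from 0, and in 5 the papilloma mean. Differences of the 23 ran from 0.97 to 5.46 in size on the log2 scale. Across all 6413 genes the class means had a Pearson r of 0.12 and a Spearman rho of 0.19, which describes the genes and is no test, since genes are not independent replicates. At an unadjusted p under 0.05 there were 495 genes (7.72%), 197 positive (3.07%) and 298 negative (4.65%).

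**Figure D1:**
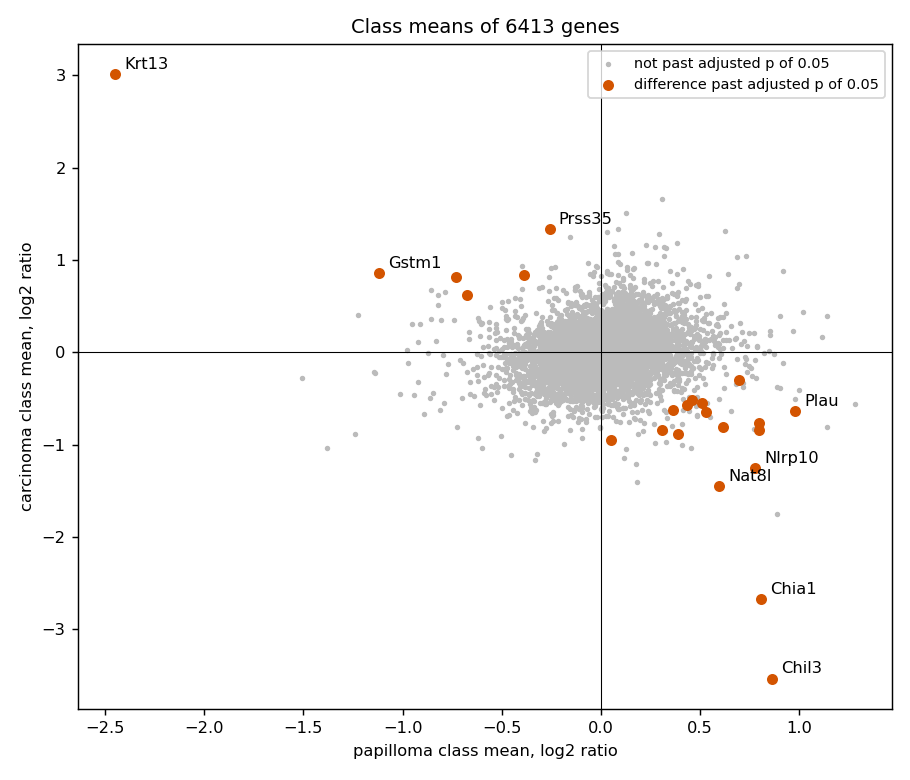
Mean log2 ratio of each of 6413 genes in papillomas (horizontal axis) and in carcinomas (vertical axis), with the 23 genes past an adjusted p of 0.05 for the class difference in orange. The 6 positive genes lie at upper left, with Krt13 far from the rest at -2.45 and 3.01, and the 17 negative genes lie at lower right, with Chil3 and Chia1 the lowest.

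The farthest shift was that of Krt13, keratin 13, a keratin of internal stratified epithelia that appears in mouse skin tumours on the way to malignancy. In papillomas its log2 ratio had a lowest value of -5.34, a median of -3.15 and a highest of 0.43 over 11 pairs. In the 6 carcinoma pairs that measured it the values were 0.17 (1684A/242), 1.69 (170/242), 2.91 (236/241A), 3.29 (237/241A), 3.61 (237/257A) and 4.57 (236/257A), each name giving the bigenic and then the monogenic tumour. Papillomas were on the negative side in 10 of 11 pairs and carcinomas on the positive side in 6 of 6, and the ranges met only at papilloma pair 1684B/257B and carcinoma pair 1684A/242. The class means were -2.45 ± 0.48 (SE) and 3.01 ± 0.64, and the difference was 5.46 ± 0.80 (adjusted p = 0.00178, limma). In the 5 pairs with both dye orientations the Krt13 values of the 2 arrays were on the same side in 4, among them 4.72 and 4.43 for 236/257A and -5.44 and -5.24 for 228B/257CE.

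The sequences before the Krt13 start sites are shown because these tumours were promoted with TPA, and the TPA response element, the site of AP-1 factors, has the letters TGANTCA. RefSeq (GRCm38.p6) lists 2 starts for Krt13, on the minus strand of chromosome 11, and the 250 bases before each are given 5′ to 3′ with matches to these letters, searched on both strands, in capitals. The first window is chr11:100121567-100121816 and the second chr11:100120578-100120827.
Krt13, first window: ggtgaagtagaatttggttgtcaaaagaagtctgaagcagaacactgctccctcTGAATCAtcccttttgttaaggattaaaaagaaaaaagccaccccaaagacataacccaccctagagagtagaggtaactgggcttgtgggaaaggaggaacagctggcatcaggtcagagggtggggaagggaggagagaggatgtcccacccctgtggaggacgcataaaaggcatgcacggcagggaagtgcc
Krt13, second window: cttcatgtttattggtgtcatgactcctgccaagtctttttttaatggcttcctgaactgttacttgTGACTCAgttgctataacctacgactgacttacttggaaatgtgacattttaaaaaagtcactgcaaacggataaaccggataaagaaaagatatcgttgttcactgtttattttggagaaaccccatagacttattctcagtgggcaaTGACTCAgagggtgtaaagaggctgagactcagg
The windows held 1 and 2 matches. Such a match was found in 6.75% of 32851 windows of 250 bases, and in 1 of the 15 called genes that have a window, which was Krt13. The first is a share of windows and the second a count of genes, some with several windows, so they are unlike measures. A match is a description of the letters, and nothing on binding was measured here.

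Glutathione S-transferases of the mu class, which conjugate glutathione to electrophiles and are induced in oxidative stress, formed the largest family among the positive genes, with Gstm1, Gstm2 and Gstm6. Gstm2 had a lowest value of -2.16, a median of -0.65 and a highest of -0.43 in papillomas, and in carcinomas -0.01, 1.13 and 1.38. No papilloma pair reached the lowest carcinoma pair. Its class means were -0.73 ± 0.15 (SE) and 0.82 ± 0.18, and the difference was 1.55 ± 0.24 (adjusted p = 0.00191, limma). Gstm1 was negative in 10 of 10 papilloma pairs, from -1.98 to -0.58 with a median of -0.88, and positive in 6 of 7 carcinoma pairs, from -0.97 to 1.83 with a median of 1.00. Its difference was 1.98 ± 0.31 (adjusted p = 0.0036, limma), and the 1 pair that overlapped the papillomas was 236/241A. Gstm6 was negative in 11 of 11 papilloma pairs and positive in 5 of 7 carcinoma pairs, with a difference of 1.30 ± 0.27 (adjusted p = 0.0324, limma). Among the 4 carcinoma pairs formed by crossing bigenic tumours 236 and 237 with monogenic tumours 241A and 257A, the values of all 3 genes were lower with 236 than with 237. Gstm6 read -0.28 and -0.07 with 236 and 1.18 and 1.37 with 237, and Gstm1 read -0.97 and 0.23 with 236 and 1.83 and 1.44 with 237.

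The 3 genes are closely related neighbours on chromosome 3, so probes of one may read RNA of another, and their values are not independent of each other. The 250 bases before their RefSeq starts (GRCm38.p6, minus strand) are shown for Gstm1, at chr3:108017974-108018223, and Gstm2, at chr3:107986421-107986670, since they moved together. They were searched for TGACNNNGC, the core of the antioxidant response element.
Gstm1: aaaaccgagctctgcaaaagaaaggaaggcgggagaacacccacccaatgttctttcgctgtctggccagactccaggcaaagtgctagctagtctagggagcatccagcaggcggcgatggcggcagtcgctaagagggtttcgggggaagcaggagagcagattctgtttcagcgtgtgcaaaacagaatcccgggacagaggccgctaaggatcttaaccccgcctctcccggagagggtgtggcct
Gstm2: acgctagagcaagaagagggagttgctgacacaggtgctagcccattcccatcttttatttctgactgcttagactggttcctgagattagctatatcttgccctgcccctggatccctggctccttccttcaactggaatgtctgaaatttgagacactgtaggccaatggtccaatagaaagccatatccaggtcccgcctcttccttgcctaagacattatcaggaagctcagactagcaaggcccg
These letters were in neither window, in 0 of the 15 called genes with a window, and in 10.2% of all windows, which says only that they are not in these bases. The core of the hypoxia response element, ACGTG, was in 3 of the 15 genes, Casp6, Rap1gap and a second Gstm1 window, and in 16.6% of all windows. Here too genes are set beside windows, and a gene with several windows can match more easily.

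The other 2 positive genes encode secreted proteins of the protease type. Prss35, a serine protease homologue, ran from -0.83 to 0.28 with a median of -0.17 in 9 papilloma pairs, and from 0.75 to 2.79 with a median of 1.12 in 6 carcinoma pairs. The classes did not overlap, and the difference was 1.59 ± 0.27 (adjusted p = 0.00986, limma), most of it on the carcinoma side, where the mean was 1.33 ± 0.20 against -0.26 ± 0.18 in papillomas. Cpxm2, a carboxypeptidase-like protein, was positive in 6 of 7 carcinoma pairs and 1 of 11 papilloma pairs, with a difference of 1.23 ± 0.26 (adjusted p = 0.0435, limma).

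On the negative side stood 2 members of the chitinase family. Chil3, also called Ym1, is a secreted lectin of alternatively activated macrophages. Its papilloma values had a lowest of -0.90, a median of 1.09 and a highest of 2.18, and 8 of 11 pairs were positive. Its carcinoma values were -5.87 (237/241A), -5.87 (236/241A), -3.29 (1684A/242), -2.20 (170/242), -2.08 (236/257A) and -1.01 (237/257A). Every carcinoma pair lay below every papilloma pair, the class means were 0.86 ± 0.38 (SE) and -3.53 ± 0.50, and the difference was -4.40 ± 0.63 (adjusted p = 0.00178, limma). Chia1, an acidic chitinase, was positive in 10 of 11 papilloma pairs, from -0.43 to 3.15 with a median of 0.53. In carcinomas Chia1 read -6.66 and -4.77 in the pairs with monogenic tumour 241A, -4.27 and -3.76 in those with 242, -0.63 and 0.05 in those with 257A, and 0.69 in pair 1687/221. The carcinoma values of Chia1 therefore fell into pairs by monogenic tumour, and its difference of -3.49 ± 0.76 (adjusted p = 0.046, limma) had an adjusted p of 0.371 without tumour 241A. For Chil3 the pairs with 241A were also the lowest, and without that tumour its difference was -2.99 and still past the threshold (adjusted p = 0.0221, limma). Both genes lie on chromosome 3 (RefSeq start windows chr3:106167565-106167814 and chr3:106113132-106113381), are related in sequence, and could share probe signal.

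Of 22 measured macrophage genes 18 had a positive difference and 4 a negative one, with a median of 0.19 against -0.01 over all genes tested, and Chil3 was the 1 past an adjusted p of 0.05. The macrophage median was -0.02 without monogenic carcinoma 242 and 0.47 without bigenic carcinoma 236, and within the second range 13 of 21 genes were positive. Lyz2, the macrophage lysozyme, had a difference of 1.40 ± 0.47 and Apoe, apolipoprotein E, one of 0.84 ± 0.34, while the mannose receptor Mrc1 had -0.92 ± 0.40 (adjusted p = 0.353, 0.521 and 0.574, limma). The mean over the macrophage list ran from -0.63 to 0.78 over papilloma pairs and from -0.56 to 1.33 over carcinoma pairs. The part of macrophage number in the Chil3 values was not tested.

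**Figure D2:**
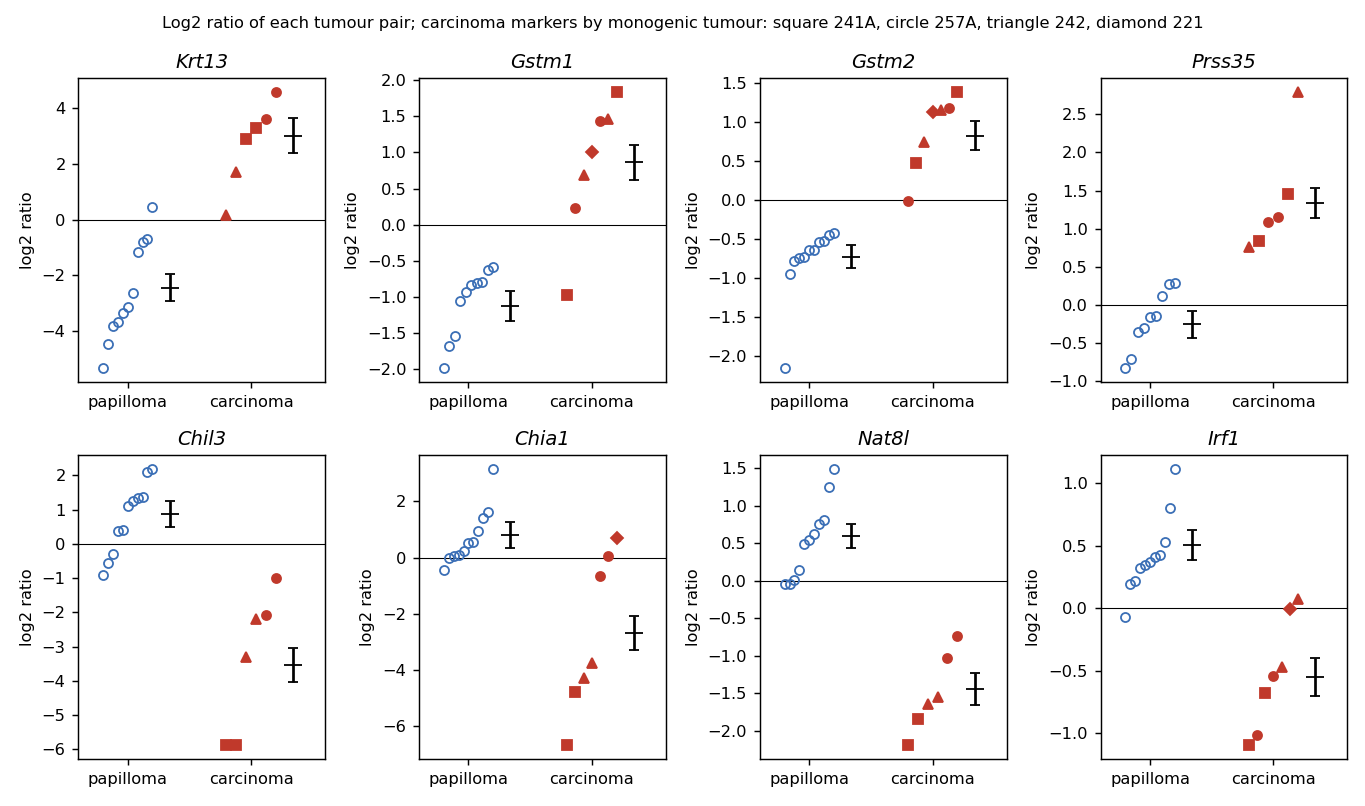
Log2 ratio of every measured pair for 8 of the genes past the threshold, papillomas as open circles and carcinomas as filled markers whose shape gives the monogenic tumour, ordered by value within a class, with the class mean and its SE in black. For Chil3, Nat8l, Gstm2 and Prss35 no papilloma pair overlaps a carcinoma pair, and the lowest Chil3 and Chia1 values are the squares, the pairs with monogenic tumour 241A.

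Nat8l had the smallest p of all genes tested. It encodes the enzyme that makes N-acetylaspartate. Papilloma values ran from -0.04 to 1.49 with a median of 0.54, and carcinoma values from -2.19 to -0.74 with a median of -1.59, with no overlap. The class means were 0.60 ± 0.16 and -1.45 ± 0.21, and the difference was -2.04 ± 0.27 (SE; adjusted p = 0.000962, limma). In the 5 pairs with both dye orientations the 2 arrays lay on the same side in 4 for Nat8l, among them -0.72 and -0.76 in 236/257A and -1.53 and -2.16 in 237/241A, and on opposite sides in papilloma pair 228B/257CE, at -0.40 and 0.42.

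Nlrp10, an NLR family protein of epithelia that acts in innate immunity, had a median of 0.77 in papillomas (-0.04 to 1.36) and -1.42 in carcinomas (-2.87 to 0.35), with pair 236/257A the 1 positive carcinoma. Its difference was -2.03 ± 0.36 (adjusted p = 0.00986, limma). Irf1, a transcription factor of the interferon response, was positive in 10 of 11 papilloma pairs and in 1 of 7 carcinoma pairs, with medians of 0.37 and -0.54. The Irf1 difference was -1.06 ± 0.19 (adjusted p = 0.0127, limma). Tnfrsf23, a decoy receptor for the death ligand TRAIL, was positive in 9 of 11 and 0 of 7 pairs, with a difference of -1.27 ± 0.23 (adjusted p = 0.0127, limma). The chemokine Cx3cl1, which draws monocytes and T cells, had a difference of -1.18 ± 0.26, and the executioner caspase Casp6 one of -0.97 ± 0.20 (adjusted p = 0.0485 and 0.0324, limma). Casp6 was positive in all 11 papilloma pairs, from 0.04 to 1.26, and positive in 1 carcinoma pair, 236/241A at 0.13.

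Plau, urokinase plasminogen activator, which starts pericellular proteolysis, had a papilloma median of 1.05 (-0.35 to 2.45) and a carcinoma median of -0.83 (-1.70 to 0.60). The Plau difference was -1.62 ± 0.34 (adjusted p = 0.0332, limma). Bhlhe40, a circadian and hypoxia-induced repressor, was positive in 9 of 11 papilloma pairs and in 0 of 7 carcinoma pairs, with medians of 0.98 and -0.42 and a difference of -1.57 ± 0.31 (adjusted p = 0.0291, limma). Ndrg1, a stress- and hypoxia-induced gene, was positive in 10 of 10 papilloma pairs and in 1 of 7 carcinoma pairs, with medians of 0.63 and -1.11 and a difference of -1.64 ± 0.35 (adjusted p = 0.0435, limma). Antxr2, a matrix-binding receptor for anthrax toxin, had a difference of -1.43 ± 0.28 (adjusted p = 0.0267, limma). Its carcinoma values were -1.57 to -0.72 in the 4 pairs of tumours 236 and 237 and -0.07 to 0.11 in the other 3.

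The other 5 negative genes had differences from -1.15 to -0.99. Rap1gap, which switches off the GTPase Rap1, had -1.15 ± 0.25, and Dgat1, the last enzyme of triglyceride synthesis, had -1.01 ± 0.22 (adjusted p = 0.0485 and 0.0439, limma). Sorcs2, a sorting receptor, was the 1 negative gene that was also past the threshold in papillomas alone, with class means of 0.70 ± 0.13 and -0.30 ± 0.16. Gtf2e2, a subunit of general transcription factor TFIIE, differed on the carcinoma side alone, with class means of 0.05 ± 0.13 and -0.95 ± 0.16. Rras, a RAS-related GTPase that acts on integrins, had a difference of -0.99 ± 0.22 (adjusted p = 0.0485, limma), and it lies outside the naming rule and was chosen after its value was seen.

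**Figure D3:**
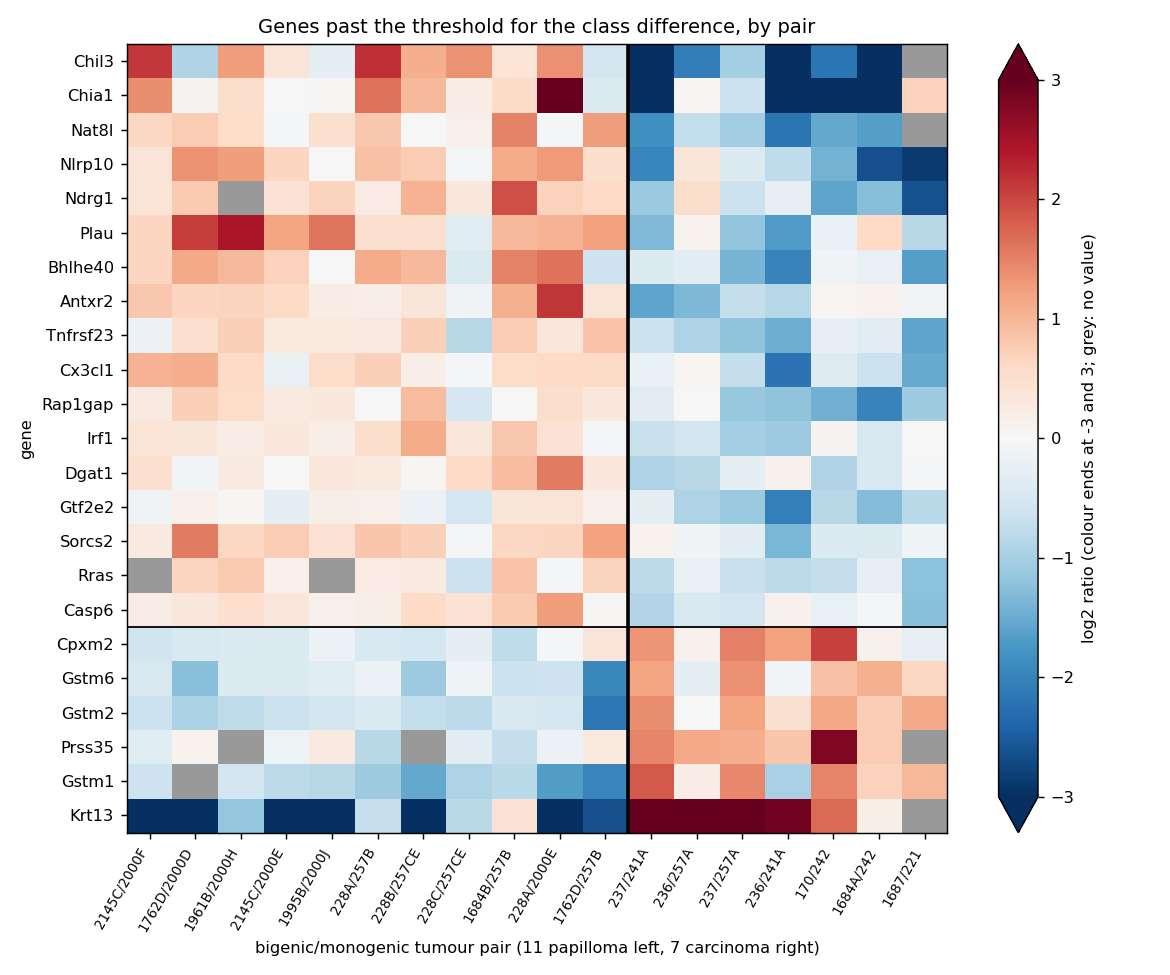
Log2 ratio of the 23 genes past the threshold (rows, ordered by class difference) in each of the 18 pairs (columns, papillomas left of the thick line), red positive, blue negative, grey without a value. The negative genes are mostly red in papillomas and blue in carcinomas, the 6 positive genes the reverse, and several cells of pairs 228C/257CE and 236/257A go against their class.

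A gene was counted as changing sign where the class means lay on opposite sides of 0 and at least 80% of the measured pairs of each class lay on the side of their mean. By this count 54 of 6413 genes (0.842%) changed sign, 20 from negative to positive (0.312%) and 34 from positive to negative (0.53%). Of the 54, 14 were also past the threshold for the difference, 4 positive (Krt13, Gstm1, Gstm2, Cpxm2) and 10 negative, namely Nat8l, Nlrp10, Irf1, Tnfrsf23, Bhlhe40, Casp6, Sorcs2, Ndrg1, Dgat1 and Cx3cl1. Requiring every pair to lie on its side left 1 gene. Sign-changing genes short of the threshold included Ccnd2, a D-type cyclin that drives entry into the cell cycle, which had a papilloma median of -0.49 and 6 of 6 carcinoma pairs positive, from 0.20 to 0.79. The Ccnd2 difference was 1.05 ± 0.24 (adjusted p = 0.0634, limma). Lor, loricrin of the cornified envelope, had a difference of 1.44 ± 0.35 and Hpse, heparanase, 0.98 (adjusted p = 0.0805 and 0.0765, limma).

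The values of papilloma and carcinoma pairs did not overlap for 9 genes (0.14%). Beside Chil3, Gstm2, Nat8l and Prss35 these were Akr1c18 (difference 1.15), Kdm5d (-1.26), Myl6 (-0.51), Plec (-0.79) and Slc20a2 (-0.71), with adjusted p from 0.0634 to 0.265 (limma), of which Kdm5d, Myl6, Plec and Slc20a2 were named after their values were seen. Kdm5d lies on the Y chromosome. Of other sex-linked genes, looked up for that reason, Xist, which is transcribed from the inactive X chromosome, had a difference of 0.90 ± 0.32 and the Y-linked Eif2s3y one of 0.00 ± 0.27 (adjusted p = 0.383 and 0.999, limma). The labels used here give no sex, and the part of the animals' sex in the class differences was not tested.

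Tgfb1, the ligand itself, was measured in too few pairs for the tests. The 5 papilloma values were 0.26, 0.34, 0.64, 0.68 and 1.97, and the 3 carcinoma values were -0.17, 0.03 and 0.12. As pair values all papillomas lay above all carcinomas, with a difference of -0.75 ± 0.35 (unadjusted p = 0.0523, and adjusted p = 0.645 in a limma fit with a lower limit on pairs). The orientations of 2 carcinoma pairs went against each other, at -0.88 with the bigenic tumour in Cy3 and 0.94 with it in Cy5 for 237/241A, and at -0.15 and 0.39 for 236/257A. All 5 papilloma arrays had the bigenic tumour in Cy3, and the carcinoma array at 0.94 lay above 4 of them. The carcinoma arrays with the bigenic tumour in Cy3 read -0.88, -0.17 and -0.15, below all 5. The papilloma values also all came from the first range of experiment numbers in the deposited table and the carcinoma values all from the second. Class and range therefore cannot be told apart for this gene, and papillomas have no value for it in the other dye orientation. The labels do not say whether its probe reads the transgene. Among the ligands, receptors and binding proteins of the family, 12 were tested and 0 passed (limma, 3 at an unadjusted p under 0.05, all positive), with 7 positive differences and a median of 0.07 against -0.01 over all genes (0.24 without monogenic carcinoma 241A, 0.00 without 257CE). The 3 were the type II receptor Tgfbr2, positive in 7 of 7 carcinoma pairs and 3 of 11 papilloma pairs (0.58 ± 0.18), and the latent TGF-beta binding proteins Ltbp1 (0.73 ± 0.30) and Ltbp2 (0.69 ± 0.28). Of 21 response and feedback genes Bhlhe40 passed, 8 differences were positive and 13 negative, and the median was -0.13 (-0.01 without monogenic carcinoma 257A). Skil, a SMAD corepressor that TGF-beta induces, had -0.54 ± 0.25, and Smurf2, a ubiquitin ligase for SMADs and receptors, 0.37 ± 0.15 (adjusted p = 0.632 and 0.49, limma).

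Matrix and stromal genes had positive differences in most members, with none past the threshold. Of 25 matrix protein genes 21 were positive, 7 at an unadjusted p under 0.05 against 3.07% of all genes, with a median of 0.49, made of a papilloma median of -0.05 and a carcinoma median of 0.38. The members of smallest p were tenascin C (Tnc, 0.90 ± 0.32), lysyl oxidase (Lox, 0.67 ± 0.25), laminin alpha 4 (Lama4, 0.56 ± 0.20) and nidogen 1 (Nid1, 0.71 ± 0.26), with adjusted p from 0.383 to 0.441 (limma). Nid1 was positive in 7 of 7 carcinoma pairs and in 3 of 11 papilloma pairs. Of 13 fibroblast and myofibroblast markers, some of which are also matrix genes, 12 were positive with a median of 0.45, among them Tagln, an actin-binding protein of myofibroblasts (1.08 ± 0.34), and Pdgfrb, a fibroblast and pericyte receptor (0.45 ± 0.20). The mean over the fibroblast list ran from -1.05 to 0.68 in papilloma pairs and from -0.21 to 1.10 in carcinoma pairs, which overlap. The part of fibroblast number in the matrix values was not tested. The mean over the matrix list ran from -1.16 to 1.15 in papilloma pairs, a range that holds the carcinoma range of -0.10 to 0.94. Over fits that omit 1 tumour at a time the matrix median stayed between 0.35 and 0.72 and the fibroblast median between 0.32 and 0.68.

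Of 11 suprabasal and cornified envelope genes 7 had a positive difference, with 0 past the threshold (limma, 4 positive and 1 negative at an unadjusted p under 0.05), and the median was 0.46. They were led by Lor, with the suprabasal keratin Krt10 at 1.53 ± 0.56 and the barrier lipoxygenase Alox12b at 1.00 ± 0.44, while Alox12e, another lipoxygenase, had -1.48 ± 0.56. The suprabasal median was 0.10 without monogenic papilloma 257B. Of 15 genes listed as basal and activated keratinocyte genes 7 had a positive and 8 a negative difference, and the median was -0.08. The 1 that passed was Krt13, which was placed in this list although described above as a keratin of internal stratified epithelia. The laminin chain Lamb3 was at -1.29 ± 0.35 and the bulge keratin Krt15 at 0.76 ± 0.28 (adjusted p = 0.143 and 0.443, limma). Of 41 cell cycle genes 16 had a positive and 25 a negative difference, with a median of -0.06. Within the second range of experiment numbers 8 were positive and 33 negative with a median of -0.30, where the median of all genes was -0.08.

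In the oxidative and xenobiotic list the 3 Gstm genes were the members that passed, of 37 tested, and 29 of 37 differences were positive with a median of 0.27. The list mean was below 0 in 11 of 11 papilloma pairs and in 3 of 7 carcinoma pairs. Thioredoxin (Txn1), which reduces protein disulphides, went the other way, negative in 7 of 7 carcinoma pairs and in 4 of 11 papilloma pairs, with a difference of -1.17 ± 0.31 (adjusted p = 0.116, limma). Within the second range of experiment numbers the list median was 0.04, and that of the matrix proteins was 0.46.

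Protease and growth factor genes included members on each side. Of 26 matrix proteases and inhibitors, Prss35 passed as positive and Plau as negative, and the median was 0.04 (-0.15 without 242 and 0.35 without 257A). Serpinb2, an inhibitor of urokinase, was opposite to Plau, with class means of -0.79 ± 0.20 and 0.65 ± 0.26 and a difference of 1.44 ± 0.33 just short of the threshold (adjusted p = 0.057, limma). The gelatinase Mmp9 was positive in 10 of 11 papilloma pairs and 2 of 7 carcinoma pairs, with a difference of -1.85 ± 0.46, and stromelysin 3 (Mmp11) was positive in 6 of 6 carcinoma pairs with 0.99 ± 0.30 (adjusted p = 0.0862 and 0.262, limma). Of 23 EGF receptor ligands and growth factors 0 passed (limma, 2 positive and 4 negative at an unadjusted p under 0.05). The 4 negative ones were Vegfa (-1.30 ± 0.31) and Vegfc (-1.06 ± 0.29), which drive growth of blood and lymphatic vessels, and the EGF receptor ligands Tgfa (-0.98 ± 0.25) and Hbegf (-0.83 ± 0.23), with adjusted p from 0.0765 to 0.177 (limma). Hbegf was negative in 7 of 7 carcinoma pairs. The 2 probes of Vegfa gave -1.59 and -1.02.

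Of 18 interferon-induced genes Irf1 passed, 8 differences were positive and 10 negative, and the median was -0.32. At an unadjusted p under 0.05 (limma) 5 were negative and 0 positive, against 4.65% and 3.07% of all genes. Of 13 MHC and antigen presentation genes 10 were negative, 4 at an unadjusted p under 0.05, among them the peptide transporter Tap1 (-0.64 ± 0.26) and beta-2 microglobulin (B2m, -1.02 ± 0.46). The MHC median was -0.10, and with 1 tumour left out it ran from -0.32 to 0.01. In a fit of single arrays with a dye term 6 MHC genes were positive and 7 negative. Of 28 cytokines and chemokines 18 were negative, with a median of -0.06, which was -0.315 without monogenic carcinoma 242 and 0.265 without 257A. With the dye term 13 were positive and 15 negative. Ccl8, a monocyte chemokine, was positive in 10 of 11 papilloma pairs and 3 of 7 carcinoma pairs with -1.95 ± 0.51 (adjusted p = 0.116, limma). Cxcl9, an interferon-induced T cell chemokine, had the widest papilloma range, from -0.30 to 7.21, and in carcinomas was -3.50 to -1.24 in the 4 pairs of 236 and 237 and 0.41 and 0.46 in those with 242. Interleukin 18 (Il18), made by keratinocytes, stood on the other side at 1.02 ± 0.28 (adjusted p = 0.145, limma). Of 9 neutrophil markers 6 were negative with a median of -0.42, led by Mmp9, S100a9 (-1.07 ± 0.39) and S100a8 (-0.80 ± 0.32), of which the S100 genes are also made by keratinocytes. The neutrophil median was 0.12 without monogenic carcinoma 257A, and the interferon median then was 0.03.

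Markers of other tissues that a tumour sample can hold were counted too. Skeletal muscle genes had a median difference of -0.07 over 28 genes, but the muscle list mean ran from -0.98 to 2.23 over carcinoma pairs and from -0.14 to 0.93 over papilloma pairs. The muscle median was -0.31 without bigenic carcinoma 1687 and 0.31 without monogenic carcinoma 257A, and in the second range alone, where 22 genes were tested, it was -0.24 with 3 positive and 19 negative. Endothelial genes had a median of 0.12 over 13 genes, lymphocyte genes 0.12 over 14, mast cell genes 0.16 over 5, adipocyte genes -0.02 over 13, hair follicle genes -0.19 over 10 and erythroid genes 0.03 over 4. Leaving out 1 tumour moved the endothelial median from -0.04 (without 242) to 0.39 (without 236), the mast cell median from -0.14 (without 242) to 0.48 (without 257B), the lymphocyte median from 0.00 to 0.22, the adipocyte median from -0.22 to 0.16 and the hair follicle median from -0.31 to 0.00. In hypoxia and glycolysis genes, where Ndrg1 passed, the median was -0.23 over 14 (-0.36 without 257A, -0.09 without 1687). Ribosomal protein genes had 20 of 24 positive differences and a median of 0.19, which was -0.01 in the second range alone and 0.02 without bigenic papilloma 1762D. Mesenchymal transition genes had a median of 0.03, immediate-early genes 0.08 and respiratory chain genes 0.00, and with 1 tumour left out these ran from -0.07 to 0.19, -0.01 to 0.25 and -0.07 to 0.18.

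**Figure D4:**
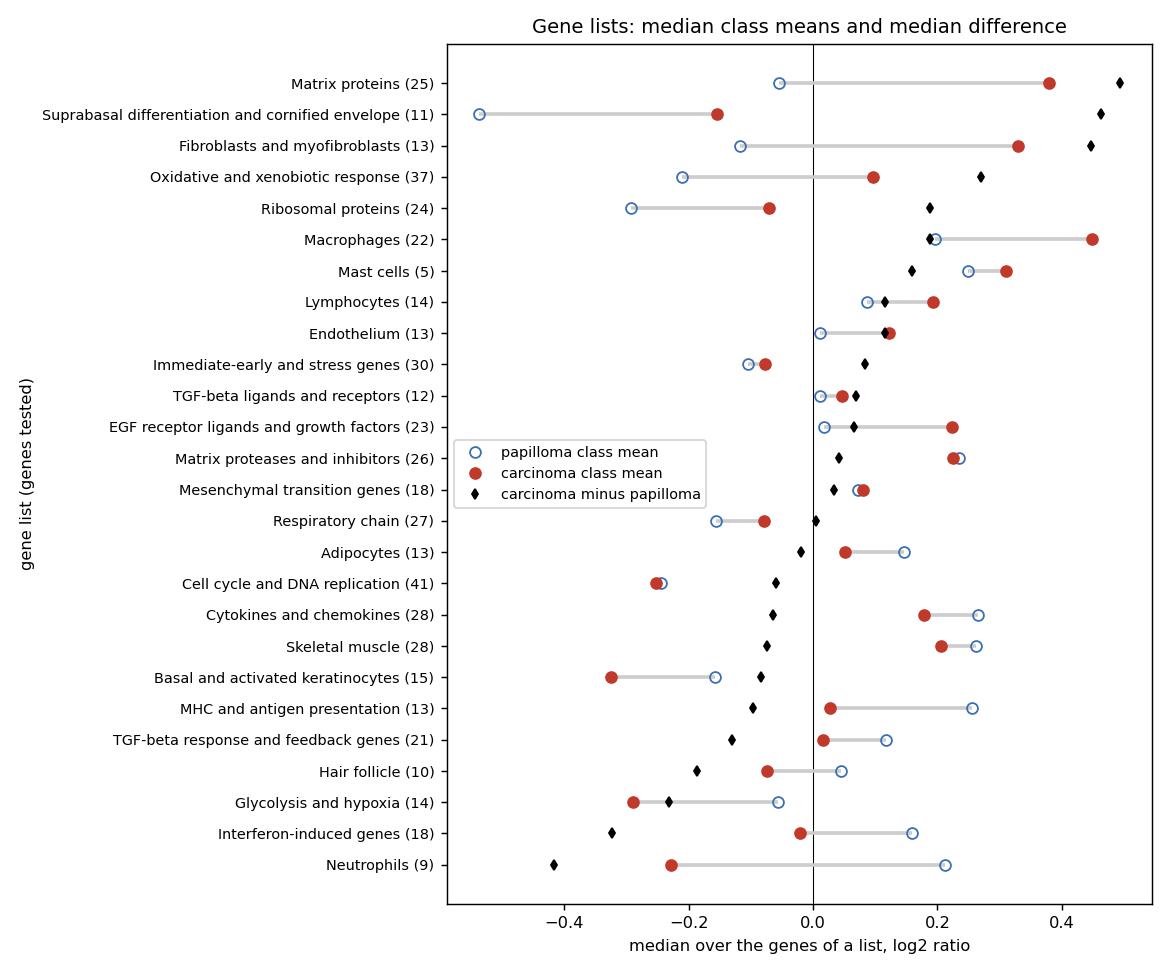
Median over the tested genes of each list for the papilloma class mean (open blue), the carcinoma class mean (filled red) and the class difference (black diamonds), in log2 ratio, with the number of genes in brackets. Matrix, suprabasal, fibroblast and oxidative lists have the most positive median differences, 0.49 to 0.27, and neutrophil and interferon lists the most negative, -0.42 and -0.32.

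The arrays fall into 3 ranges of experiment numbers, which the labels carry but do not explain. The first holds 5 papilloma pairs and no carcinoma, the second 4 papilloma and 6 carcinoma pairs, and the third 5 papilloma pairs and 1 carcinoma pair, with some pairs split over ranges. Within the second range 0 of 5833 genes passed (limma, 338 at an unadjusted p under 0.05). The class difference there rests on 10 pairs, and the cause of the lower count was not tested. All 23 genes kept their sign there, 20 had an unadjusted p under 0.05 and 20 had class means on opposite sides of 0. Krt13 then had class means of -1.62 and 3.01 and a difference of 4.63, Chil3 a difference of -4.88, Nat8l -1.87, Gstm1 2.18 and Prss35 2.11. Rras had the smallest share of its difference there, at -0.49 against -0.99. With the range as a fixed term 25 genes passed, 14 of them among the 23. That term placed a pair split over ranges wholly in the range of its lowest experiment number. Papilloma pairs 1684B/257B, 228A/257B and 228B/257CE were coded in this way, so the term adjusts for range only in part. The other range with both classes holds 1 carcinoma pair and gives no value of its own.

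**Figure D5:**
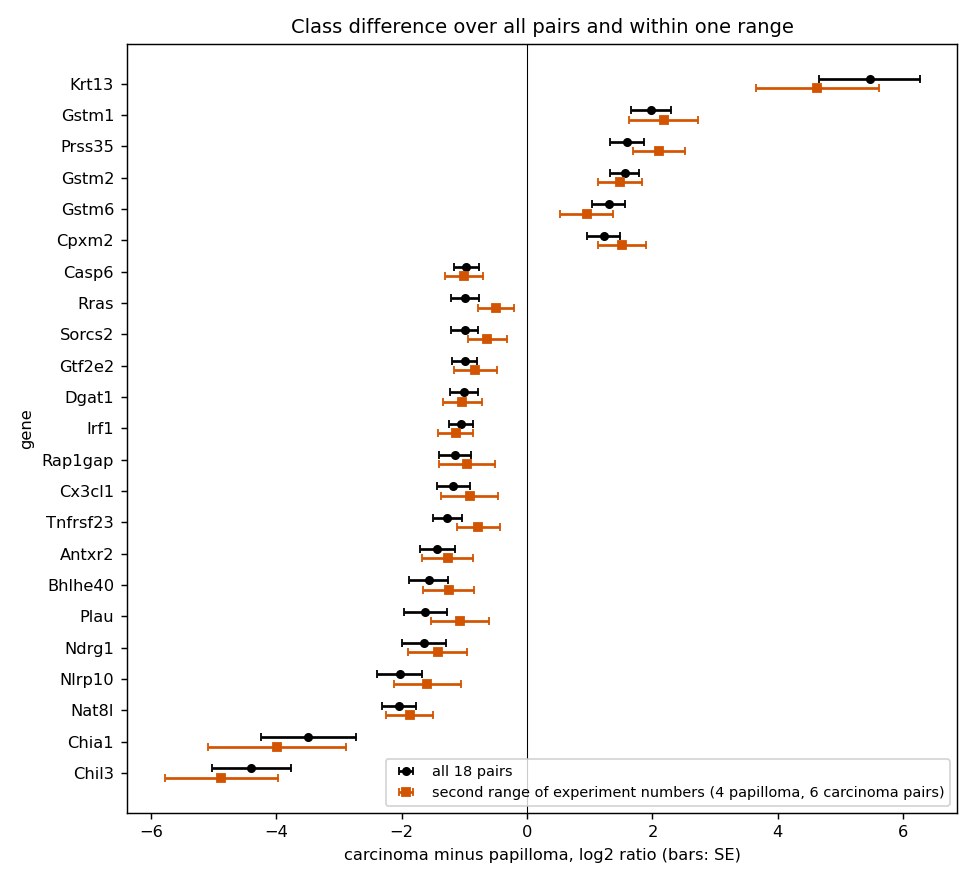
Carcinoma minus papilloma difference in log2 ratio, with its SE, for the 23 genes over all 18 pairs (black circles) and within the second range of experiment numbers, with 4 papilloma and 6 carcinoma pairs (orange squares). Every gene lies on the same side of 0 in both, which share arrays, and Krt13 moves from 5.46 to 4.63.

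Pairs share tumours, so they are fewer independent samples than their number. The papilloma pairs fall into 4 groups that share no tumour and the carcinoma pairs into 3, and an exact two-sided permutation test over these 7 groups cannot go below p = 0.0286. Of the 17 called genes with values in all 7 groups, 14 reached that smallest p, as did 6.42% of all genes with values in all 7 groups. The called genes were chosen by a large difference in these same values, which favours a small p here. The permutation p of the 23 ran from 0.0286 to 0.114. For Krt13, Chil3 and Nat8l, which had no value in the carcinoma group of pair 1687/221, the exact permutation p was 0.0667, the smallest that 15 arrangements allow. With the groups as replicates 0 genes passed (limma, 493 unadjusted). Over the 5 pairs with both dye orientations, the 2 arrays of a called gene lay on the same side in 87 of 109 cases, 35 of 45 in carcinomas and 52 of 64 in papillomas. The called genes were chosen on the means of these same arrays, which favours that, and the share over all genes was not counted. Across all probes the 2 orientations correlated at r from -0.05 to 0.33. The bigenic tumour was in Cy5 on 21.4% of papilloma and 22.2% of carcinoma arrays, and in a fit of single arrays with a dye term and the pair as a random block 43 genes passed, including all 23.

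Leaving out each of the 24 tumours in turn gave 5 to 37 genes past the threshold. The count was 5 without monogenic papilloma 257B, 7 without monogenic carcinoma 241A and 8 without bigenic carcinoma 237, and 37 without monogenic carcinoma 257A. Krt13, Chil3, Nat8l and Gstm2 passed in 24 of 24 such fits and Gstm1 in 23. Prss35 and Nlrp10 passed in 21, and Irf1 and Tnfrsf23 in 20. At the other end Rap1gap, Cx3cl1 and Rras passed in 3, Chia1 and Dgat1 in 4, and Sorcs2 in 5. None of the 23 changed sign in these fits or in the other alternatives that measured it, all of which reuse arrays that chose the 23.

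Genes past the threshold in a single class need not differ between classes. Cyp2s1, an epithelial cytochrome P450, was past it in papillomas, negative in 11 of 11 papilloma and 6 of 6 carcinoma pairs, with class means of -0.70 ± 0.11 and -0.50 ± 0.15. Its class difference was 0.20 ± 0.18 (adjusted p = 0.849, limma). Of the 4 genes called in papillomas (0.0624%) Gstm1 and Sorcs2 were also called for the difference, and Gem, a small GTPase positive in 11 of 11 papilloma pairs and 2 of 7 carcinoma pairs, was not (-0.78 ± 0.19, adjusted p = 0.0805, limma). Of the 6 called in carcinomas (0.0936%) Nat8l, Chil3, Prss35 and Gtf2e2 were also called for the difference, and Mmp11 and Hbegf were not. Both counts moved with single tumours and settings, from 0 to 7 in papillomas and from 3 to 96 in carcinomas with 1 tumour left out, where the carcinoma count was 96 without 257A, 52 without 236 and 3 without 241A. With arrays of the bigenic tumour in Cy3 alone they were 26 and 219, with unweighted pairs 2 and 44, and with array quality weights 146 and 24.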

How the data were processed

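Mouse skin tumour RNA was compared on 23 2-colour arrays. The deposited values are signed ratios, taken here as log2. What the authors used as log base, numerator, background correction and normalization is not given in the sources used here. Ratios were turned by the dye labels, centred on the array median and averaged over arrays of the same 2 extracts. The platform annotation gave 1 symbol for 7486 of 9596 probes, several for 483 and no entry for 1627. Probes of a gene were averaged (629 genes). Genes needed values in 8 papilloma and 5 carcinoma pairs. The contrast carcinoma minus papilloma was fitted with limma 3.58.1 (R 4.3.3), pairs weighted by their arrays, p-values adjusted by Benjamini-Hochberg over 6413 genes. Named genes were Tgfb1, the 12 largest differences each way (filled by smallest p), 10 sign-changing genes each way, genes called in 1 class and 4 per list. Members and the 27 lists were chosen with earlier results of these data known. The fit was tested on simulated data with independent pairs, which does not cover pairs that share a tumour. Since tumours of 1 animal cannot be recognised from the labels, the p-values reflect spread between pairs.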

Additional observations from a re-analysis of the deposited data

Results flagged for a closer look

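All 23 genes past the threshold are flagged because their response differed between the tumour classes by the fit's own contrast. In log2 ratio, carcinoma minus papilloma, the positive ones were Krt13 (5.46), Gstm1 (1.98), Prss35 (1.59), Gstm2 (1.55), Gstm6 (1.30) and Cpxm2 (1.23). The negative ones were Chil3 (-4.40), Chia1 (-3.49), Nat8l (-2.04), Nlrp10 (-2.03), Ndrg1 (-1.64), Plau (-1.62), Bhlhe40 (-1.57), Antxr2 (-1.43), Tnfrsf23 (-1.27), Cx3cl1 (-1.18), Rap1gap (-1.15), Irf1 (-1.06), Dgat1 (-1.01), Gtf2e2 (-0.9975), Sorcs2 (-0.9974), Rras (-0.99) and Casp6 (-0.97).

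A single pair stood far from the rest of its class, by Dixon's ratio, in 4 of 28 gene and class groups checked, where chance gives about 1 in 20. These were Tgfb1 in the papilloma pair of bigenic tumour 1961B (1.97), Ndrg1 in papilloma pair 1684B/257B (1.94), Prss35 in carcinoma pair 170/242 (2.79) and Sorcs2 in carcinoma pair 236/241A (-1.37). Called genes with a value in every papilloma pair were left out of the check in papillomas. The groups checked share pairs and are not independent, so setting their count beside 1 in 20 is no test.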

How the results depend on the processing

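All 23 called genes kept the sign of their difference under every alternative that measured them, and 17 to 23 of them still passed under unweighted pairs (22 genes called), no centring (24), Cy3 arrays alone (25), each probe alone (24), single arrays with a dye term and the pair as a random block (43), equal spread (42), quantile normalization (49), array quality weights (49) and monogenic tumours as a random block (34). Fewer passed with bigenic tumours as a random block (15), without the first range of experiment numbers (3), in the second range alone (0; limma, 338 unadjusted) and with linked groups as replicates (0; limma, 493 unadjusted). The last 3 have fewer pairs or replicates, and the cause was not tested. All alternatives reuse arrays that chose the 23, which favours the same sign. The 54 sign-changing genes became 22 with single arrays, a dye term and the pair as a random block, 99 without the first range, 85 in the second range, 135 over linked groups and 96 without pair 1687/221, and were 1 when all pairs and 2778 when no minimum share had to agree. The 14 that also passed became 3, 0 and 0 in the range and group settings in that order, 23 with quantile normalization and 23 without pair 1687/221. Leaving out each tumour gave 5 to 37 called genes, 41 to 135 sign-changing genes and 3 to 23 that did both. Title numbers shared by the classes did not pair the arrays (r from -0.32 to 0.16, own number best in 1 of 9). With the number as a replicate block 10 genes passed, 31 changed sign and 4 did both, and on the same arrays without the block 10, 32 and 6, a comparison added after seeing the data, as were the fits without pair 1687/221 or 1762D/257B. Cyp2s1, not called, read -0.18 in the second range and -0.032 with the range of each pair's lowest experiment number as a term. The 11 and 7 pairs limit how small a difference can be seen.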
